A study of Mus musculus with 15 samples.

Results

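Among 35 neuronal and synaptic transcripts in sorted cortical microglia, 6 were called lower in PS2APP than in non-Tg libraries, where 0.222% of all genes tested were called lower. An earlier analysis of the same libraries had singled out these 6 for their decrease, and 0 of the other 26 tested were called. Of the 32 that could be tested, 30 had a negative log2 fold change, where 52.7% of all genes tested had one. The 35 genes were taken as a listed set: the GABA-synthesising enzymes of inhibitory neurons, genes of glutamatergic (excitatory) neurons and their synapses, the vesicle release machinery, axonal and cytoskeletal genes, and neuronal surface, calcium-sensor and other genes. They were read from the count column of all 15 libraries, which holds 36528 gene identifiers, and all 35 were found. The libraries came from cells of the mouse cortex sorted for green fluorescent protein expressed from Cx3cr1, the fractalkine receptor gene of microglia, and both groups carried this reporter. PS2APP mice (n = 9 libraries, of which 4 at 14 months and 5 at 15 months of age) carry transgenes for human mutant presenilin 2 and human mutant amyloid precursor protein, the second of them driven in neurons by Thy1 promoter elements. The non-Tg mice (n = 6, of which 2 at 14 months and 4 at 15 months) carry neither transgene. The labels do not say that each library came from a separate mouse, so p-values measure the spread between these libraries.

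Neurons signal by filling vesicles with transmitter, fusing them with the membrane through the SNARE proteins, and reading the transmitter with receptors on the next cell. Inhibitory neurons of the cortex make GABA from glutamate, while excitatory neurons load glutamate itself into vesicles, so the synthesis and transport genes tell the cell types apart. Microglia contact synapses, and they take up neuronal debris and amyloid.

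The libraries held between 3664742 and 8455237 reads over genes. Microglial genes dominated them: in RPKM (reads per length and library size, which allows genes to be compared), P2ry12 averaged 573.6, Csf1r 320.2, Tmem119 212.4 and Cx3cr1 162.6, and none of these 4 was below 114.8 RPKM in any library. The neuronal genes were far lower on the same scale. Camk2a averaged 5.59, Snap25 4.30, Kif5a 3.23 and Thy1 2.43 RPKM, while 25 of the 35 averaged under 1 RPKM, among them Gad2 with 0.460 and Gad1 with 0.0992 RPKM. All 35 together took between 910 and 4233 reads in PS2APP libraries, and between 2000 and 10210 reads in non-Tg libraries. Of the 35, 29 had reads in every library, and 3 were too low to be tested: Gad1 (137 reads over all libraries), the neurofilament subunit gene Nefm (88 reads) and the neuronal tubulin gene Tubb3 (37 reads, none in 5 libraries). In bulk RNA, whether these reads came from neurons, neuronal fragments or the sorted microglia themselves cannot be told. Nor can fewer neurons or fragments be told apart from less RNA from each.

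**Figure D1:**
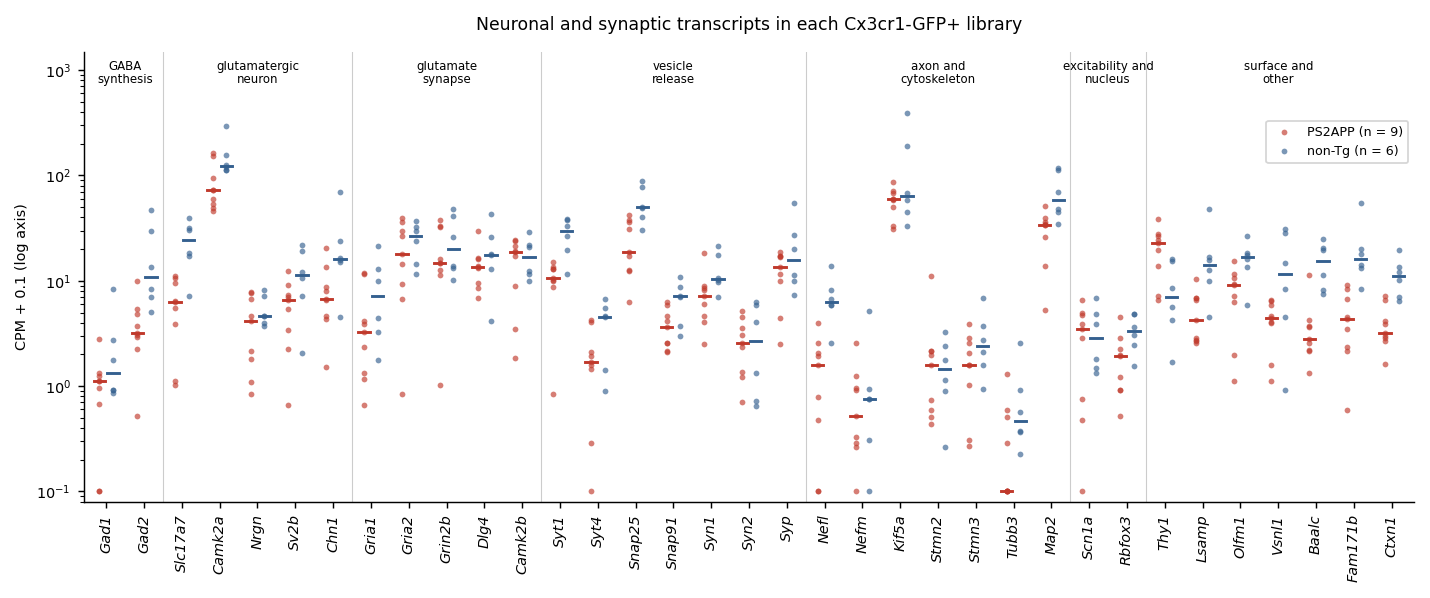
Level of each of the 35 genes in each library, in CPM (reads scaled to the TMM-adjusted library size) plus 0.1 on a log axis, with PS2APP libraries (n = 9) left of non-Tg libraries (n = 6) for every gene and a bar at each group's median. The groups overlap for all 35 genes; the PS2APP median is the lower one for most of them, and Thy1, Camk2b, Scn1a and Stmn2 have the higher median in PS2APP.

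Sequences upstream of the genes that separate inhibitory from excitatory neurons are shown because the comparison of those classes turns on them. RefSeq promoter windows of GRCm38.p6, which run from 250 bases before to 50 after an annotated start, were found for 23 of the 35 genes, in 34 windows. They were searched on both strands for both arms of RE1 (left CAGCACC, right GGACAGC), the element bound by the repressor REST that silences neuronal genes outside neurons, and for the GC box GGGCGG and the TATA box TATAAA. The arms of RE1 share the letters CAGC and can overlap there. The 250 bases before the start follow, 5′ to 3′ on the plus strand, for Gad2 (chr2:22622077-22622326), Gad1 (chr2:70561879-70562128) and Slc17a7 (chr7:45163671-45163920), with matches in capitals: the right arm of RE1 in Gad2, a TATA box and a GC box on the minus strand in Gad1, and GC boxes on both strands in Slc17a7, where a pair on the minus strand overlaps. For Gad1 and Gad2 the annotated gene begins upstream of the start used here.
Gad2: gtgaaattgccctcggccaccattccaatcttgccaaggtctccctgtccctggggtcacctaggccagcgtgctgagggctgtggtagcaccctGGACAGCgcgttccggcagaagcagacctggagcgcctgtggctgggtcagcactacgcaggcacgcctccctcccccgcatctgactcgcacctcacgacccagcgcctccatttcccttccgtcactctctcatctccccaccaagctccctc
Gad1: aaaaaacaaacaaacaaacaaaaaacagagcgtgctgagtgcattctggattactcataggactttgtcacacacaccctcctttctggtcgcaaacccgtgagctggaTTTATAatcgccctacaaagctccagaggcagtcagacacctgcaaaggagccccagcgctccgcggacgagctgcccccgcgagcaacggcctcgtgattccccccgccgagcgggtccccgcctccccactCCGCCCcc
Slc17a7: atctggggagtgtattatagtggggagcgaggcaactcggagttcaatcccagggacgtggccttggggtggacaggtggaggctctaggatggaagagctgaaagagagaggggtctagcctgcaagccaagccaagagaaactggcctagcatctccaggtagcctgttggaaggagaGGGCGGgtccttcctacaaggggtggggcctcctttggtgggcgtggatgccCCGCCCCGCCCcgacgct
An arm of RE1 was present in 7 of the 34 windows (20.6%), against 13.1% of all 32851 promoter windows of the table. Its right arm was found for Gad2, Gria2, Map2 and Tubb3, and its left arm for Dlg4, Lsamp, Syn1 and Tubb3. The GC box was in 17 of the 34 windows and 35.7% of all, and the TATA box in 8.82% and 13.6%. A match describes letters, and a window without one says only that these letters are not in it.

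Both genes for glutamate decarboxylase, the enzyme that makes GABA, were scarce. Gad2 (chromosome 2, 22621015 to 22693877, GRCm38) had 0.426, 3.06 and 9.94 CPM (lowest, median and highest) in PS2APP libraries, against 4.91, 10.9 and 46.8 CPM in non-Tg libraries. All 9 PS2APP libraries lay below the non-Tg median and 7 below every non-Tg library, and non-Tg samples 11 (46.8 CPM) and 5 (29.9 CPM) were highest. Gad2 fell in PS2APP, with a log2 ratio of PS2APP to non-Tg of -2.26 ± 0.53 (SE; edgeR quasi-likelihood test with age in the model, Benjamini-Hochberg adjusted p = 0.0315 over 13994 genes). Without PS2APP sample 8 and non-Tg sample 11 the value was -1.57 ± 0.50 and the edgeR adjusted p = 0.194. Gad2 passed in 9 of the 15 fits that left out a library, and it did not pass when PS2APP sample 3, 8, 10 or 14 or non-Tg sample 5 or 11 was left out. Nor did it pass with limma-voom (-1.89, adjusted p = 0.141) or limma-trend on log2(RPKM + 1) (adjusted p = 0.149). Gad1, which makes most of the GABA of the brain, had 0, 1.02 and 2.72 CPM in PS2APP libraries, against 0.753, 1.25 and 8.21 CPM in non-Tg libraries. Reads of Gad1 were absent from PS2APP samples 8 and 10, its groups overlapped, and 2 non-Tg libraries, samples 12 (8.21 CPM) and 13 (2.64 CPM), held the upper values with PS2APP sample 7. The highest library was thus a different one for Gad1 and for Gad2.

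Of the 5 genes of glutamatergic neurons, 1 fell and 4 were not called, where 0.222% of all genes tested were called lower. The gene that fell is among the 6 that the earlier analysis had singled out. Slc17a7 (chromosome 7, 45163921 to 45176139), the vesicular glutamate transporter of cortical excitatory neurons, had 0.934, 6.23 and 11.1 CPM in PS2APP libraries, against 7.13, 24.2 and 39.8 CPM in non-Tg libraries. Only non-Tg sample 13, at 7.13 CPM, was within the PS2APP range, and PS2APP samples 8 and 15 were lowest. Its log2 fold change was -1.94 ± 0.47 (edgeR adjusted p = 0.0388), and -1.63 ± 0.43 (edgeR adjusted p = 0.0869) without PS2APP sample 8 and non-Tg sample 11. It passed in 7 of the 15 fits that left out a library, and it did not pass when PS2APP sample 1, 6, 10, 14 or 15 or non-Tg sample 5, 11 or 12 was left out. The 3 highest non-Tg libraries were samples 11, 5 and 12, the same 3 as for Gad2. Camk2a, the most abundant of the 35 and the kinase of excitatory synapses, had 46.3, 72.3 and 164.2 CPM in PS2APP libraries, against 113.0, 123.0 and 293.1 CPM in non-Tg libraries. PS2APP samples 1 (164.2 CPM) and 4 (153.6 CPM) were inside the non-Tg range, the other 7 were below it, and the log2 fold change was -0.83 ± 0.29 (edgeR adjusted p = 0.210). Chn1, a Rac-inactivating protein of neurons, had 1.43, 6.64 and 20.4 CPM in PS2APP libraries, against 4.43, 16.0 and 69.8 CPM in non-Tg libraries. Non-Tg sample 11 alone held 69.8 CPM of Chn1, the groups overlapped, and the log2 fold change of -1.39 ± 0.52 (edgeR adjusted p = 0.252) was -0.80 ± 0.48 without that library and PS2APP sample 8. The calmodulin-binding Nrgn (-0.41 ± 0.50) and the synaptic vesicle gene Sv2b (-0.86 ± 0.47) were not called.

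None of the 5 genes of the receiving side of the glutamate synapse was called. Gria2, an AMPA receptor subunit, had 0.747, 18.1 and 39.2 CPM in PS2APP libraries, against 11.5, 26.6 and 36.9 CPM in non-Tg libraries. Grin2b, an NMDA receptor subunit, had 0.934, 14.7 and 37.3 CPM in PS2APP libraries, against 10.2, 19.9 and 48.0 CPM in non-Tg libraries. For both genes the ranges overlapped widely, and PS2APP sample 8 was lowest by far. The log2 fold changes were -0.30 ± 0.49 for Gria2 (edgeR adjusted p = 0.876) and -0.30 ± 0.50 for Grin2b (0.880). Without PS2APP sample 8 and non-Tg sample 11, Gria2 stood at -0.05 ± 0.38. The AMPA receptor subunit Gria1 (-0.84 ± 0.67), the scaffold Dlg4 (-0.46 ± 0.38) and the kinase subunit Camk2b (-0.19 ± 0.42) were not called either.

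The 7 vesicle release genes had negative log2 fold changes from -1.28 to -0.28, and none was called. Syt1, the calcium sensor of fast release, had 0.747, 10.4 and 15.1 CPM in PS2APP libraries, against 11.6, 29.7 and 38.1 CPM in non-Tg libraries. Of the non-Tg libraries 5 lay above every PS2APP library, non-Tg sample 13 was within the PS2APP range, and PS2APP sample 8 was far below the rest. The log2 fold change of Syt1 was -1.28 ± 0.38 (edgeR adjusted p = 0.126). It passed without PS2APP sample 8 (-1.17, edgeR adjusted p = 0.0450) but not without samples 8 and 11 together (-1.13 ± 0.28, edgeR adjusted p = 0.0577). Snap25, a SNARE protein of the nerve terminal, had 6.17, 18.6 and 42.2 CPM in PS2APP libraries, against 30.5, 49.7 and 88.2 CPM in non-Tg libraries. All 9 PS2APP libraries were below the non-Tg median of Snap25, 4 were inside the non-Tg range, and the log2 fold change was -1.15 ± 0.35 (edgeR adjusted p = 0.132). The others were Syt4 (-1.04 ± 0.67), the endocytosis adaptor Snap91 (-0.86 ± 0.43), the synapsins Syn1 (-0.65 ± 0.37) and Syn2 (-0.28 ± 0.62), and synaptophysin, Syp (-0.60 ± 0.43). Syp was at -0.10 ± 0.36 without PS2APP sample 8 and non-Tg sample 11.

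Axonal and cytoskeletal genes were uneven, and none was called. Kif5a (chromosome 10, 127225695 to 127266348), a kinesin motor of axonal transport, had 30.6, 59.4 and 87.5 CPM in PS2APP libraries, against 33.4, 63.2 and 390.9 CPM in non-Tg libraries. The medians were close, and the upper end was set by non-Tg samples 9 (390.9 CPM) and 13 (188.7 CPM). Its log2 fold change of -1.18 ± 0.41 (edgeR adjusted p = 0.209) was -0.39 without non-Tg sample 9. Those 2 libraries and PS2APP samples 1 and 4 also stood apart in 23 immediate early genes, the rapid response genes such as Egr1, whose summed level was 5597 and 5698 CPM in PS2APP samples 1 and 4, 11860 and 20800 CPM in non-Tg samples 9 and 13, and between 783.5 and 1335 CPM in the other 11 libraries. Without these 4 libraries Kif5a stood at 0.09 ± 0.27 (edgeR adjusted p = 0.920). Map2, a dendritic microtubule protein, had 5.23, 33.8 and 50.8 CPM in PS2APP libraries, against 34.2, 58.3 and 117.0 CPM in non-Tg libraries. Non-Tg samples 13 and 9 were again highest and PS2APP samples 14 and 8 lowest, at -1.24 ± 0.35 on the log2 scale (edgeR adjusted p = 0.0990), or -0.75 (0.414) without the 4 libraries. Nefl, the light neurofilament subunit, had 0, 1.49 and 3.89 CPM in PS2APP libraries, against 2.49, 6.20 and 13.7 CPM in non-Tg libraries. Of the PS2APP libraries 8 were below every non-Tg library, at few reads, and its log2 ratio was -2.34 ± 0.69 (edgeR adjusted p = 0.124). The tubulin-binding stathmins stood at 0.55 ± 0.74 for Stmn2 and -0.65 ± 0.61 for Stmn3.

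Scn1a, a voltage-gated sodium channel of inhibitory neurons and axons, had 0, 3.40 and 6.48 CPM in PS2APP libraries, against 1.24, 2.74 and 6.82 CPM in non-Tg libraries. Rbfox3, which encodes the neuronal nuclear antigen NeuN, had 0.426, 1.82 and 4.42 CPM in PS2APP libraries, against 1.45, 3.23 and 4.74 CPM in non-Tg libraries. Neither was called: the log2 fold changes were -0.10 ± 0.68 for Scn1a (edgeR adjusted p = 0.981) and -1.06 ± 0.52 for Rbfox3 (0.441). Both are low, with 258 and 207 reads over all libraries.

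In the last group of 7 genes 4 fell. Baalc (chromosome 15, 38933909 to 38951264), a membrane-associated protein of brain and leukaemia cells, had 1.23, 2.72 and 11.2 CPM in PS2APP libraries, against 7.36, 15.4 and 24.9 CPM in non-Tg libraries. PS2APP sample 4 was within the non-Tg range and the other 8 were below it. Its log2 fold change was -2.22 ± 0.44 (edgeR adjusted p = 0.00964), and -2.19 ± 0.45 (0.0168) without PS2APP sample 8 and non-Tg sample 11, and it passed in 15 of 15 fits that left out a library. Fam171b (chromosome 2, 83812563 to 83883534) had 0.498, 4.25 and 9.07 CPM in PS2APP libraries, against 8.34, 16.0 and 54.1 CPM in non-Tg libraries. PS2APP sample 7, at 9.07 CPM, was the single PS2APP library above the lowest non-Tg one, and non-Tg sample 11 was highest. The log2 fold change of Fam171b was -2.15 ± 0.47 (edgeR adjusted p = 0.0199), it was lost without non-Tg sample 5 or non-Tg sample 11, and without samples 8 and 11 it was -1.58 ± 0.45 (0.125). It did not pass without the 4 libraries high in immediate early RNA (edgeR adjusted p = 0.0784) or with limma-trend on log2(RPKM + 1) (adjusted p = 0.0605).

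Lsamp (chromosome 16, 39984254 to 42181679), a cell adhesion molecule of limbic and other neurons, had 2.46, 4.11 and 10.2 CPM in PS2APP libraries, against 4.42, 14.0 and 47.7 CPM in non-Tg libraries. Non-Tg sample 11 was again far above the others, and 4 of 9 PS2APP libraries were inside the non-Tg range. Its log2 fold change was -1.87 ± 0.46 (edgeR adjusted p = 0.0485), it passed in 3 of 15 fits that left out a library (without PS2APP sample 7 and without non-Tg samples 2 and 9), and without samples 8 and 11 it was -1.22 ± 0.41 (0.220). Lsamp did not pass with limma-voom (adjusted p = 0.125), with limma-trend on log2(RPKM + 1) (0.220) or, in edgeR, without the 4 libraries high in immediate early RNA (0.0829). Ctxn1 (chromosome 8, 4257646 to 4259274), the small membrane protein cortexin, had 1.53, 3.11 and 7.05 CPM in PS2APP libraries, against 6.37, 11.1 and 19.5 CPM in non-Tg libraries. PS2APP samples 4 and 8 alone reached the non-Tg range. Its log2 fold change was -1.63 ± 0.40 (edgeR adjusted p = 0.0444), and -1.74 ± 0.41 (0.0433) without PS2APP sample 8 and non-Tg sample 11. Ctxn1 passed in 5 of the 15 fits that left out a library; it did not pass when PS2APP sample 1, 3, 6, 7, 10, 14 or 15 or non-Tg sample 9, 12 or 13 was left out. It also did not pass with total count scaling (edgeR adjusted p = 0.0605) or without the 4 libraries high in immediate early RNA (0.156).

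Thy1 (chromosome 9, 44043384 to 44048579), a surface glycoprotein of neurons and T cells, went the other way. It had 6.47, 22.8 and 38.1 CPM in PS2APP libraries, against 1.58, 6.96 and 16.2 CPM in non-Tg libraries. Of 9 PS2APP libraries 8 were above the non-Tg median, the groups overlapped, and PS2APP sample 3 was lowest in its group. The log2 fold change was 1.52 ± 0.46 (edgeR adjusted p = 0.133), and 1.78 ± 0.46 (0.0701) without PS2APP sample 8 and non-Tg sample 11. DESeq2 called it higher, and whether reads of a transgene with Thy1 sequence count toward it was not tested. Olfm1, a secreted olfactomedin of synapses, had 1.02, 8.92 and 15.2 CPM in PS2APP libraries, against 5.82, 16.8 and 26.3 CPM in non-Tg libraries, and stood at -0.95 ± 0.41 on the log2 scale (edgeR adjusted p = 0.359). The calcium sensor Vsnl1 stood at -1.72 ± 0.59 (0.200), with all 9 PS2APP libraries below the non-Tg median. Baalc, Chn1, Gad1, Grin2b, Lsamp, Map2, Syp and Syt4 overlap antisense genes in the GENCODE annotation, and Syn1 and Syn2 hold Timp1 and Timp4 on the other strand. The use of strand in counting is not stated, so reads of such partners cannot be told apart.

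**Figure D2:**
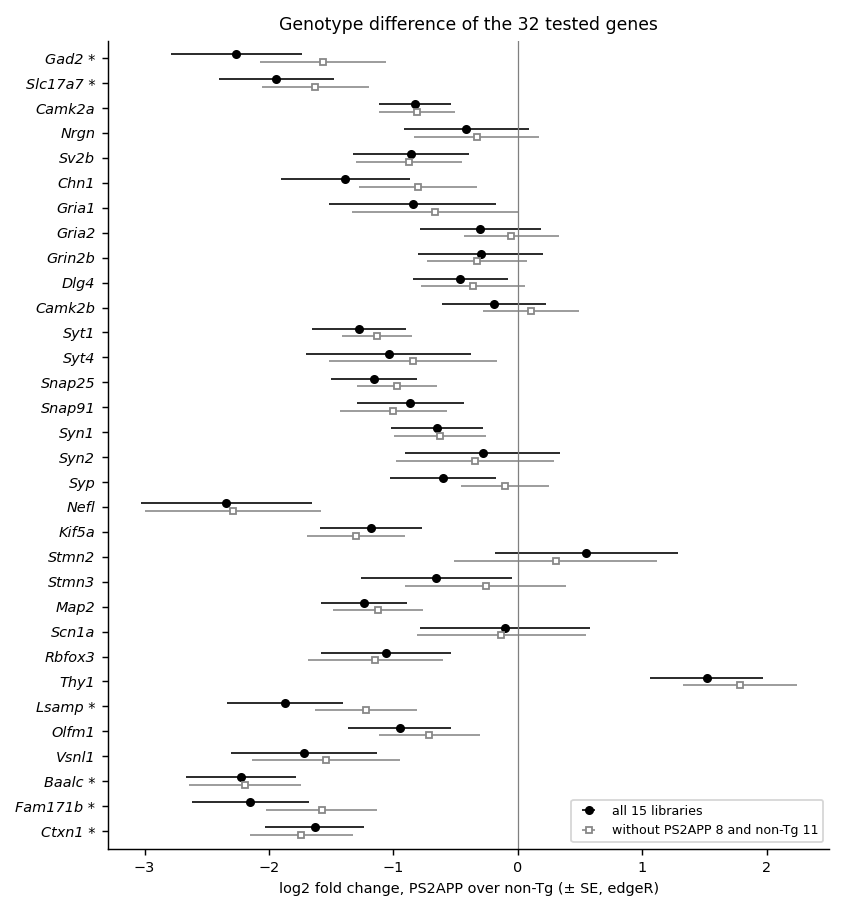
Log2 fold change of PS2APP over non-Tg for the 32 tested genes with its SE (edgeR, all 15 libraries), and the same without PS2APP sample 8 and non-Tg sample 11; an asterisk marks an adjusted p under 0.05 with all libraries. With all libraries 30 of 32 values are negative, and 29 without those 2 libraries; Thy1 and Stmn2 are positive in both, and Camk2b turns slightly positive in the second.

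Over the 35 genes, 6 of the 32 tested were called lower and 0 higher. Among all 13994 genes tested, 0.222% were called lower and 0.958% higher. The 6 are genes that an earlier analysis of the same libraries had singled out for their decrease, so their count is not independent evidence. Of the other 29 genes 26 were tested, and 0 were called in either direction by edgeR. At an unadjusted p under 0.05, 9 of these 26 were lower and 1 was higher, where 5.95% of all genes were lower and 5.73% higher. DESeq2 called 11 of the 32 lower, among them Syt1, Snap25, Nefl, Map2 and Vsnl1 of the 26, and Thy1 higher, with 0.908% of all genes lower and 1.87% higher. Limma-voom called 6 lower, among them Snap25 and Nefl but not Gad2 or Lsamp. Of all 13994 genes it called 39 lower and 145 higher. A negative log2 fold change was found for 24 of the 26, and for 52.7% of all genes. The median was -0.84 for the 26, -0.91 for the 32, and -0.02 for all genes tested. The 26 too were chosen with earlier results of these data known. The 32 genes also vary together over the same 15 libraries, so counts of genes are not counts of separate observations. In no gene of the 35 did the groups fail to overlap, while 0.0643% of all genes had every PS2APP library below every non-Tg library and 0.572% had it above.

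Sample 8 and sample 11 stood at the ends of their groups. Of all 15 libraries PS2APP sample 8 held the least RNA of the 35 genes, with the lowest value for 13 of them. Non-Tg sample 11 had the highest mean log2 CPM, with the highest value for 9 genes. The summed level of the 35 genes was 170.0, 405.3 and 609.3 CPM in PS2APP libraries (lowest, median and highest), against 554.1, 723.3 and 1281 CPM in non-Tg libraries. PS2APP sample 4 (609.3 CPM) was the only PS2APP library to reach the non-Tg range, and non-Tg sample 9 was highest. Camk2a, Kif5a and Map2 made up 34.0% to 56.7% of that sum in PS2APP libraries, and 25.3% to 62.9% in non-Tg libraries. The mean log2 CPM, which weights every gene equally, was 1.51, 2.79 and 3.34 in PS2APP libraries, against 3.21, 3.59 and 3.96 in non-Tg libraries, and PS2APP samples 4 and 7 were inside the non-Tg range. On the first principal component of all genes non-Tg sample 11 lay at 136.3, and the other 14 libraries lay between -32.7 and 10.6.

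Without PS2APP sample 8 and non-Tg sample 11, 2 of the 32 genes, Baalc and Ctxn1, were called lower and 0 higher (edgeR adjusted p under 0.05; 0.169% of 14174 genes were lower and 0.917% higher). Both had been called with all libraries. The calls of Gad2, Slc17a7, Lsamp and Fam171b were lost, at log2 fold changes from -1.63 to -1.22. The median of the 32 was -0.83, against -0.91 with all libraries, and 29 were negative.

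**Figure D3:**
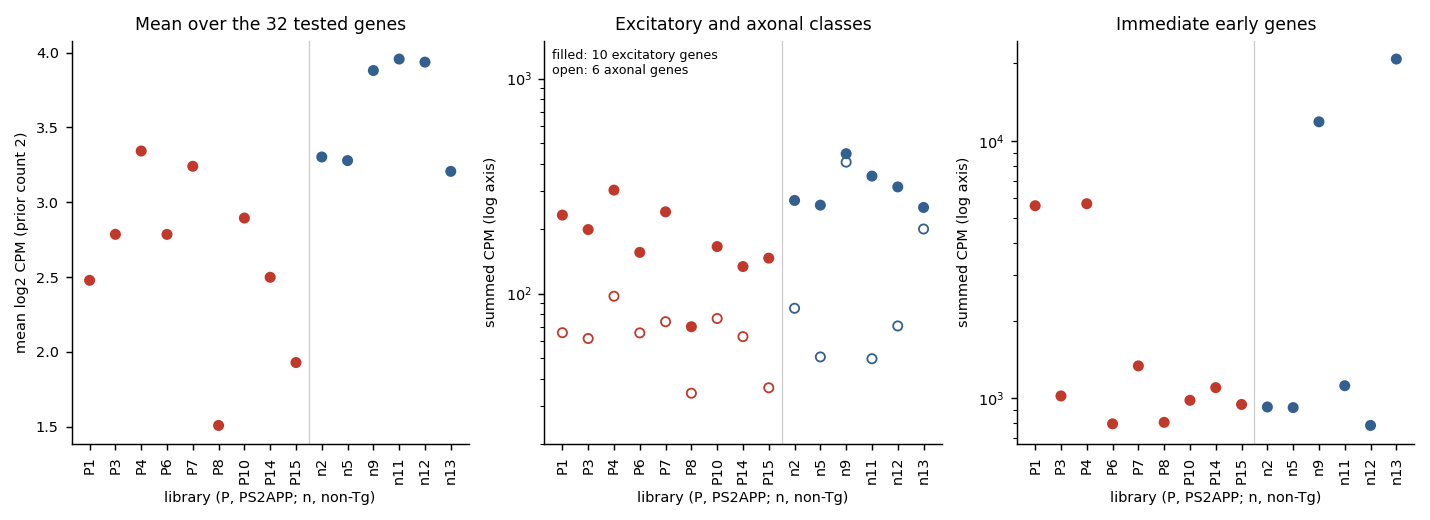
Per library, with PS2APP libraries (P and the sample number) left of non-Tg libraries (n and the sample number): the mean log2 CPM of the 32 tested genes, the summed CPM of the 10 excitatory (filled) and 6 axonal (open) genes on a log axis, and the summed CPM of the immediate early genes on a log axis. PS2APP sample 8 is lowest in the mean and in the excitatory sum, non-Tg sample 9 is highest in the axonal sum at 408.6 CPM, and PS2APP samples 1 and 4 and non-Tg samples 9 and 13 stand apart in immediate early genes.

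The excitatory and axonal sums shared most of their extremes, with PS2APP sample 8 lowest, PS2APP sample 4 highest in its group and non-Tg sample 9 highest of all, and the inhibitory sum had its extremes in other libraries. Gad1 and Gad2 summed to 1.28, 4.08 and 11.1 CPM in PS2APP libraries, against 5.72, 15.6 and 47.7 CPM in non-Tg libraries, with non-Tg samples 11, 5 and 12 highest. The 10 excitatory genes summed to 70.1, 165.3 and 302.7 CPM in PS2APP libraries, against 251.4, 292.1 and 447.2 CPM in non-Tg libraries, with non-Tg samples 9 and 11 highest. The 6 axonal genes, of which Kif5a gave the most, summed to 34.4, 65.6 and 97.2 CPM in PS2APP libraries, against 49.7, 78.0 and 408.6 CPM in non-Tg libraries. Non-Tg sample 11, the highest in inhibitory genes, was the lowest non-Tg library in axonal genes.

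As log2 fold changes, the inhibitory class rested on Gad2 alone at -2.26. The 10 excitatory genes, all tested, had a median of -0.64 with 1 called lower, and the 4 axonal genes tested had a median of -0.92 with 0 called. The difference between the inhibitory value and the excitatory median was -1.62, and -1.05 without PS2APP sample 8 and non-Tg sample 11. That median joins 5 genes of glutamatergic neurons (median -0.86) with 5 of the glutamate synapse (-0.30). Slc17a7 alone, at -1.94 ± 0.47, stood near Gad2 at -2.26 ± 0.53. In the further lists described below, the medians were -0.85 for 7 tested GABAergic genes and -0.55 for 24 tested glutamatergic genes. Within a library, the log2 level of Gad2 minus the mean log2 level of the excitatory genes was -3.45, -1.53 and 0.23 in PS2APP libraries, against -1.73, -0.74 and 1.10 in non-Tg libraries, so the groups overlapped widely. The spread within groups was 1.23 (SD), and the difference of the classes was not tested.

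At 14 months, with 4 PS2APP and 2 non-Tg libraries, 0 of the 32 genes were called (0.027% of 14791 genes were lower and 0.311% higher) and the median log2 fold change was -0.55, with 26 negative. At 15 months, with 5 and 4 libraries, Syt1 (-1.62 ± 0.31, edgeR adjusted p = 0.0283) and Baalc (-2.70 ± 0.54, 0.0334) were called lower (0.0732% of 13666 genes were lower and 0.402% higher), and the median was -1.13 with 29 negative. Among all genes tested, 47.8% were negative at 14 months, with a median of 0.03, and 53.4% at 15 months, with a median of -0.04. The value was more negative at 15 months for 27 of the 32, and for 54.1% of the 13487 genes tested at both ages. Of the 6 genes called with all libraries, Baalc alone passed at 1 of the ages. Gad2 stood at -1.98 ± 0.66 at 14 months and -2.41 ± 0.69 at 15 months, Grin2b at 0.86 ± 0.86 and -0.87 ± 0.40, and Thy1 at 2.85 ± 0.82 and 0.95 ± 0.40. The genotype by age interaction, which tests that difference itself, called 0.0% of 13994 genes with edgeR and none of the 32, and DESeq2 called 6 genes. At an unadjusted p under 0.05 it took 7.42% of all genes and 1 of the 32, Thy1 (-1.83, unadjusted p = 0.0457).

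The tested genes varied together within the groups. After the mean of each genotype was removed, the Pearson correlation of log2 CPM over the 15 libraries had a median of 0.25 over the 496 pairs of the 32 genes, and 78.4% of pairs were positive. Pairs of the 13962 other genes tested had a median of 0 and 49.9% positive. The median was 0.22 without PS2APP sample 8 and non-Tg sample 11, 0.34 in the PS2APP libraries alone and 0.13 in the non-Tg libraries alone. These are descriptions of 15 libraries, in which all genes share the depth and composition of each library.

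The genes differed in how closely they followed the rest. With the mean of the other 31 genes, Snap25 had r = 0.86, Slc17a7 0.81, Syp 0.79, Olfm1 0.76 and Syt1 0.74, while other synaptic genes were lower, with 0.35 for Syn2, 0.27 for Syn1, 0.24 for Dlg4 and 0.17 for Snap91, and Gad2 had 0.09 and Rbfox3 -0.06. Without PS2APP sample 8 and non-Tg sample 11 these were 0.75 for Snap25, 0.69 for Slc17a7, 0.69 for Syp, 0.66 for Olfm1, 0.53 for Syt1, -0.04 for Gad2 and 0.14 for Rbfox3. Syn2 was at 0.36, Syn1 at -0.08, Dlg4 at 0.13 and Snap91 at 0.46. The order of the genes thus changed: Chn1 went from 0.57 to 0.75, Ctxn1 from 0.12 to 0.59, and Gria2 from 0.58 to 0.18. Thy1, the gene with the opposite genotype difference, had r = 0.67 with the others and 0.81 with Syp.

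Gad2 had low or mixed correlations with the excitatory genes, with a median r of 0.12 over 10 pairs (-0.45 to 0.39), and its median with the 4 axonal genes was -0.19. The excitatory genes had a median of 0.26 with each other and 0.13 with the axonal genes, and the axonal genes 0.29 with each other. Its highest r with any of the 31 was 0.74, with Syt4, and its lowest -0.69, with Snap91. Other pairs were close too: Camk2a with Kif5a had r = 0.68, the pair that was high in non-Tg sample 9, and Gad2 with Lsamp had 0.63, the pair that was high in non-Tg sample 11. Without PS2APP sample 8 and non-Tg sample 11 these were 0.68 and 0.48. Lsamp with Fam171b had 0.66, and 0.54 without those libraries.

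**Figure D4:**
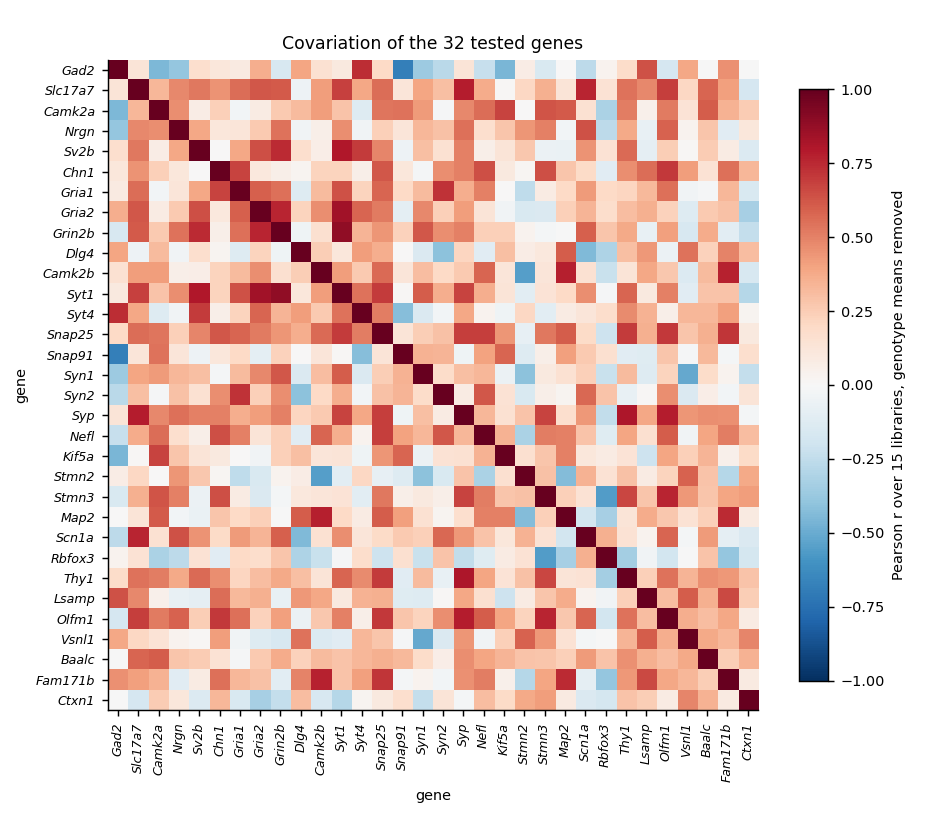
Pearson correlation of log2 CPM between the 32 tested genes over the 15 libraries after the mean of each genotype was removed, ordered by role. Most pairs are positive (78.4% of 496), and Snap25, Syt1 and Syp with Slc17a7, Olfm1 and Thy1 hold many of the higher values. Gad2, Rbfox3 and other genes, among them Snap91, have values of both signs.

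**Figure D5:**
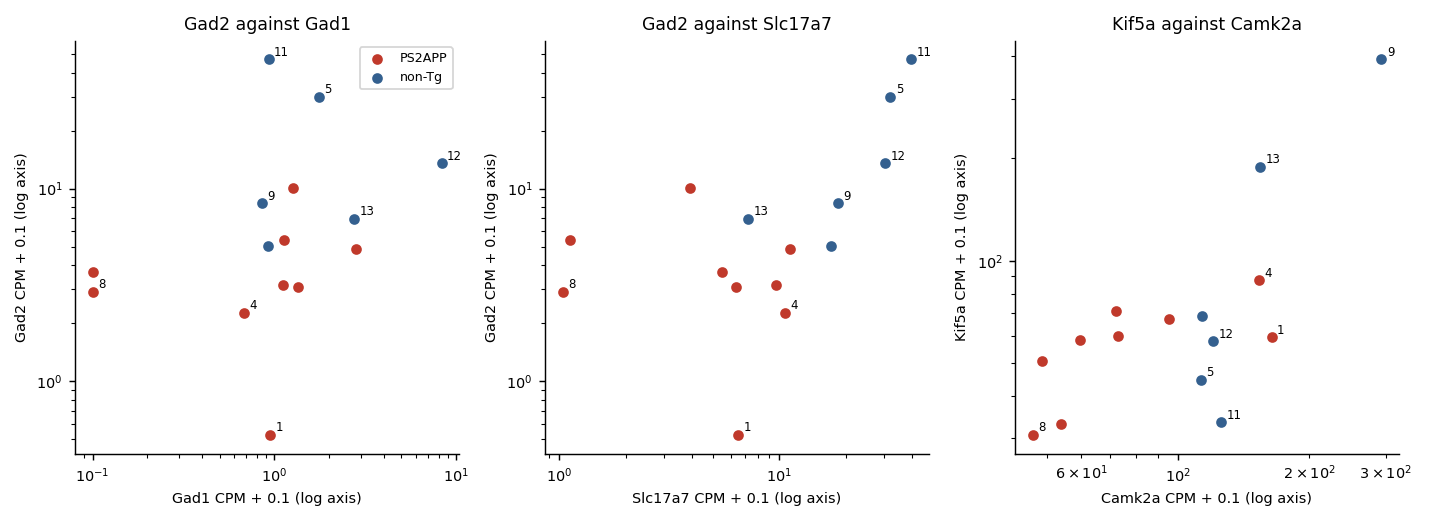
Levels of 3 pairs of genes in each library (CPM + 0.1, log axes): Gad2 against Gad1, Gad2 against Slc17a7, and Kif5a against Camk2a, with PS2APP and non-Tg libraries in separate colours and some marked by sample number. Non-Tg sample 11 is highest in Gad2 and in Slc17a7, non-Tg sample 12 in Gad1, and non-Tg sample 9 in Kif5a and Camk2a.

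The genes outside the set whose level followed the mean of the 32 most closely, among 12173 genes whose log2 CPM averaged 2 or more, were Tstd1 (r = 0.87), AI593442 (0.85), Chgb (0.83), Ndrg4 (0.83), Slc24a2 (0.82), St8sia3 (0.82), Schip1 (0.80), Cyfip2 (0.80) and Arfgef3 (0.80). These are the highest of 12173 values over 15 libraries, so high values arise from the choice alone. Without PS2APP sample 8 and non-Tg sample 11 the r of these genes ran from 0.64 for Arfgef3 to 0.85 for Chgb. Chgb encodes a secretory granule protein and Slc24a2 a calcium exchanger. The genotype differences of these genes were not called. Cyfip2, a regulator of actin at synapses, came nearest with 2.24, 8.62 and 22.2 CPM in PS2APP libraries, against 12.8, 23.8 and 43.2 CPM in non-Tg libraries (log2 -1.45, edgeR adjusted p = 0.0935). Tstd1 stood at 0.04 and did not follow genotype.

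Other neuronal genes, from lists written for this comparison, leaned the same way with few calls. Of 134 such genes 96 were tested, 1 fell, 1 rose and 82 had a negative log2 fold change, with a median of -0.55. Among all genes tested 0.222% were called lower, 0.958% were called higher and 52.7% were negative, with a median of -0.02. Map1b, a microtubule protein of growing axons, fell to 11.8, 27.7 and 57.8 CPM in PS2APP libraries, against 34.4, 66.2 and 129.5 CPM in non-Tg libraries (-1.19 ± 0.26, edgeR adjusted p = 0.0219). Cacna1a, a calcium channel of nerve terminals, rose to 32.9, 56.7 and 91.5 CPM in PS2APP libraries, against 18.9, 23.3 and 33.8 CPM in non-Tg libraries (1.21 ± 0.22, 0.00440). The genes of these lists thus did not all stand lower in PS2APP. Some were abundant, such as Maf (mean 805.5 CPM) and Dpysl2 (551.3 CPM), and which cells their reads came from was not tested. Of 25 further GABAergic genes 7 were tested and none called, with a median of -0.85, and Lhx6, Dlx2, Dlx5, Dlx6, Calb2 and Sp8 stayed under 1 CPM in every library. The interneuron peptide Sst had 0, 0.680 and 5.23 CPM in PS2APP libraries, against 0.924, 2.91 and 8.83 CPM in non-Tg libraries (-1.62 ± 0.78, edgeR adjusted p = 0.430). The cannabinoid receptor Cnr1 had 0, 1.49 and 7.48 CPM in PS2APP libraries, against 1.11, 4.05 and 40.4 CPM in non-Tg libraries (-1.49 ± 0.74, 0.450). Of 30 further glutamatergic genes 24 were tested and none called, with a median of -0.55, led by the kinase Camk4 (-1.52 ± 0.47, 0.145) and the scaffold Shank1 (-0.84 ± 0.29, 0.202). Among 23 tested vesicle release genes none was called, with a median of -0.30 and Amph at -1.97 ± 0.62 (0.158). The median was -0.49 for 17 tested axon and cytoskeleton genes, which hold Map1b and Nrcam (-1.33 ± 0.46, 0.206), and -0.87 for 25 ion channel and RNA-binding genes, which hold Cacna1a.

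Some markers of other cells were called as well, in both directions, and most were not (0.222% of all genes tested were called lower and 0.958% higher). The 18 astrocyte markers summed to 841.0, 1106 and 1389 CPM in PS2APP libraries, against 1359, 1689 and 2590 CPM in non-Tg libraries. Of 15 tested, the glutamate transporter Slc1a2 (-1.01 ± 0.22, edgeR adjusted p = 0.0202) and glutamine synthetase, Glul (-0.69 ± 0.15, 0.0225), fell, the filament gene Gfap rose (2.08 ± 0.42, 0.0120), and the sums of the groups met at PS2APP samples 1 and 7 and non-Tg sample 2. The 16 oligodendrocyte markers overlapped across most of their range, at 666.0, 952.9 and 1436 CPM in PS2APP libraries, against 754.2, 957.2 and 1556 CPM in non-Tg libraries, and 0 of 8 tested were called. The 13 choroid plexus and ependymal markers summed to 14.3, 21.4 and 34.7 CPM in PS2APP libraries, against 10.5, 62.5 and 431.9 CPM in non-Tg libraries, highest in non-Tg sample 9, and 2 of 3 tested, Ttr and Enpp2, fell. Endothelial and mural markers summed to 163.3 to 358.5 CPM in PS2APP libraries, against 164.0 to 333.2 CPM in non-Tg libraries. Of 13 tested, the adhesion molecule Pecam1 fell (-1.21 ± 0.24, edgeR adjusted p = 0.0107) and the receptor Flt1 rose (2.27 ± 0.50, 0.0220). Oligodendrocyte precursor markers had 16.7 to 46.7 CPM in PS2APP libraries, against 12.8 to 29.7 CPM in non-Tg libraries. Of 3 tested, the proteoglycan gene Cspg4 rose (4.19 ± 0.56, edgeR adjusted p = 0.000121), with a median of 14.5 CPM in PS2APP libraries, against 0.905 CPM in non-Tg libraries, and Ptprz1 stood at -0.47 ± 0.39 (0.701). Border macrophage markers summed to 71.1 to 272.8 CPM in PS2APP libraries, against 43.0 to 266.5 CPM in non-Tg libraries. Of 10 tested, 0 were called. Lymphocyte and granulocyte markers reached at most 11.5 CPM in PS2APP libraries, against 82.3 CPM in non-Tg libraries, with Nkg7, Ms4a1 and Ly6g under 1 CPM in every library. Homeostatic microglia markers summed to 40440 to 60360 CPM in PS2APP libraries, against 51360 to 68560 CPM in non-Tg libraries, with 1 of 20 called, P2ry13 (-0.55 ± 0.13, 0.0304). The part of these cells in the neuronal differences was not tested.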

How the data were processed

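RNA was extracted from sorted cells with a column kit, per the labels' protocols, and GSNAP mapped the reads to GRCm38 (stated in the submitters' processing notes, which give no version; strandedness is not stated). The deposited count is the number of uniquely aligned reads per gene, per the file headers. The deposited RPKM was adjusted by a size factor per sample, per the file headers, and served for levels between genes and 1 alternative. RefSeq GRCm38.p6 symbols matched 31049 of 36528 identifiers (97.2% to 98.2% of reads).

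Under R 4.3.3, edgeR 4.0.16 fitted the counts with TMM scaling and terms for age and genotype, after filterByExpr, and tested genotype by quasi-likelihood, with Benjamini-Hochberg adjustment over all genes tested, and a threshold of 0.05. SE is the size of the log2 ratio over the root of F. Log2 CPM used a prior count of 2. No 2 samples of a group agreed within sampling noise over 51 pairs (chi-square per degree of freedom 9.98 to 67.5). The fit was tested on simulated counts. Alternatives were no age term, RLE or total count scaling, other count filters, DESeq2 1.42.0, limma 3.58.1 (voom, or trend on log2(RPKM + 1)), subsets of samples and each sample left out.

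The members and lists were chosen with earlier results of these data known. The genes given in full are those called with all samples or without samples 8 and 11, Gad1, Gad2, and the 2 of each role with the highest mean CPM; beyond them, the 10 genes that followed the mean most closely, 1 of them an identifier without a name, and the 2 of each list with the smallest p, of which some are not reported here. Nefl, Vsnl1 and the cell type markers named were added for context after their values were seen.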

Additional observations from a re-analysis of the deposited data

Results flagged for a closer look

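In 8 of 46 groups of values checked, 1 library stood apart from the rest of its group by Dixon's criterion. Its chance rate of about 1 in 20 applies to independent groups of normally spread values. These groups share the same 15 libraries, so the count is a description only. Non-Tg sample 11 was the highest non-Tg library by such a gap in Chn1 (69.8 CPM), Lsamp (47.7 CPM) and Fam171b (54.1 CPM). Non-Tg sample 12 stood out in Gad1 (8.21 CPM) and non-Tg sample 9 in Camk2a (293.1 CPM). Among PS2APP libraries, sample 8 was lowest in Syt1 (0.747 CPM), sample 4 highest in Baalc (11.2 CPM) and sample 7 highest in Gad1 (2.72 CPM).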

How the results depend on the processing

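The count of genes called, 6 with all samples, was 15 with no count filter (14 lower and Thy1 higher), 12 with DESeq2 (11 lower and Thy1 higher), 2 without PS2APP sample 8 and non-Tg sample 11, 0 at 14 months, 2 at 15 months, and 3 without PS2APP samples 1 and 4 and non-Tg samples 9 and 13, the libraries high in immediate early genes. Leaving out each sample in turn gave 2 to 6. Calls among all genes moved too: with all samples 31 of 13994 were lower and 134 higher. With no count filter 298 of 25970 were lower and 350 higher, and with DESeq2 127 of 13994 were lower and 261 higher. Without those 4 libraries 30 of 14195 were lower and 112 higher. The median log2 fold change of the 32 tested genes, -0.91, ranged from -1.05 to -0.81 without a sample. It was -0.32 with limma-trend on log2(RPKM + 1), a scale that shrinks low genes. The inhibitory minus excitatory difference, -1.62, ranged from -1.89 to -1.04 without a sample and was -0.37 on that scale. Among the 18 tested genes given in full, the sign reversed for Grin2b at 14 months (0.86), for Kif5a when those 4 libraries were left out (0.0879), and for Scn1a, which ranged from -0.36 to 0.23 without a sample, without PS2APP sample 6 (0.02), 8 (0.03) or 15 (0.07) or non-Tg sample 5 (0.14) or 12 (0.23). In the other 14 tested genes it reversed for Gria1 (0.65), Syn2 (0.49) and Syp (0.21) at 14 months, Camk2b at 15 months (0.05) and without PS2APP sample 8 and non-Tg sample 11 (0.11), Dlg4 without the 4 libraries (0.02), and Syn2 with limma-voom (0.04) and without non-Tg sample 2 (0.03). The cause was not tested. Of the other values of the 18 genes, 402 kept direction and side of the threshold, 62 lost the call and 15 gained it. The interaction called none of the 32 genes in any alternative run. No paired analysis was possible because the groups share no replicate numbers. Most of these genes have few reads, which limits the precision of their folds.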
